A study of Mus musculus with 24 samples.

Results

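Prepl, E430018J23Rik, Grb14 and Itgad are 4 genes whose signal was lower in brain tissue lacking THAP1 than in control tissue in 1 or more of 3 regions. They were chosen for that difference, so their differences between knockout and control are given as a description, with no test. They are 4 of the 16593 named genes on the array. The members are all probes that the array annotation assigns to these symbols, 8 of 25697, and each probe was followed on its own. The detection filter kept 6 of the 8, among 14994 kept in all, and it kept a probe that was measurable on at least 4 of the 24 arrays, in whichever group. Messenger RNA was measured on Illumina bead arrays in the cerebellum, the cortex and the striatum of animals at postnatal day 21, with 4 arrays for the Nestin THAP1 KO group and 4 for the Nestin Con group of each region. Both genotypes carry the word Nestin in their labels, and the design text calls the animals conditional knockout and WT mice, 4 of each. THAP1 binds DNA through an atypical zinc finger and regulates transcription, and mutations of its gene cause a form of dystonia. In mouse work Nestin names a promoter active in neural progenitors, from which neurons, astrocytes and oligodendrocytes descend and microglia and endothelial cells do not, but no label describes the allele. The labels do not say which arrays share a mouse, and arrays of different regions may come from the same mouse. All 24 arrays were treated as independent, also in each SE of a difference between regions, and p-values measure the spread between arrays.

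Prepl, Grb14 and Itgad belong to unrelated families. Prepl encodes a serine hydrolase of the prolyl oligopeptidase family that binds the AP-1 adaptor complex, and its loss in people causes muscle weakness. Grb14 encodes an adaptor protein that binds the active insulin receptor and inhibits its kinase. Itgad encodes the integrin alpha D chain, which pairs with the beta2 chain on macrophages and other leukocytes. E430018J23Rik carries a RIKEN clone name, and no role is given to it here.

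RefSeq windows around an annotated start, from 250 bases before to 50 bases after it on assembly GRCm38.p6, matched 2 of the 4 genes. They are shown because THAP1 is a DNA-binding protein and these are the promoters of genes whose signal differs without it. Capitals in the Prepl window mark both matches to CCATNTT, the letters used here for the factor YY1, and capitals in the Grb14 window mark the match to TNNNGGCA, the letters used for THAP1, with both strands searched.
Prepl, chr17:85090225-85090524, minus strand: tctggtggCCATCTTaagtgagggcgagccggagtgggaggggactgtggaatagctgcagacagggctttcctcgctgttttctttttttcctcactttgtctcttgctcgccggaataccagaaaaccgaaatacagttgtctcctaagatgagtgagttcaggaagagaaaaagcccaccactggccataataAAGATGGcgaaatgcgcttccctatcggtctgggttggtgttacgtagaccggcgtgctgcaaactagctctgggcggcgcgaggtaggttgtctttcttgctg
Grb14, chr2:65022717-65023016, minus strand: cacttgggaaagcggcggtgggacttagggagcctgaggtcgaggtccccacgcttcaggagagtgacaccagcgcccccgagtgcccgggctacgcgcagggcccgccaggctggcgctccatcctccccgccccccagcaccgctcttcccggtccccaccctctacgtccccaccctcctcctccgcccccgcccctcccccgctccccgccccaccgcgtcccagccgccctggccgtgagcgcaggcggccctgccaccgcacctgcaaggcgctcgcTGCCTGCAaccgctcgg
The Prepl window held 0 matches to the THAP1 letters and 2 to the YY1 letters. Counted from the annotated start used for the window, 1 lay at -242 on the gene's strand and 1 at -54 on the opposite strand. The annotated span of Prepl reaches beyond that start, so the match at -54 lies inside the span and the match at -242 outside it. A second annotated start of Prepl places the same matches at -249 and -61. The Grb14 window held 1 THAP1 match, at 34 bases into the gene on the opposite strand, and 0 YY1 matches. Neither held ACTACA, the start of the element bound by THAP11 and ZNF143. Of 32851 windows of the same length, 42.0% held the THAP1 letters, 16.1% the YY1 letters at least once, 1.74% the YY1 letters 2 or more times, and 10.3% ACTACA. The Grb14 window was 75.3% G and C and the Prepl window 52.0%, beside a median of 52.7% over all windows. A match is a description of letters, not of binding.

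Values below are normalized signals on a log2 scale, in which a difference of 1 is a factor of 2 in signal with an added offset included. A probe counts as detected on an array where its detection p is under 0.01. Mean raw intensity ran from 287 to 570 between arrays, and 47.2 to 54.5% of probes were detected on each. Arrays of the same group correlated at 0.974 to 0.989 over kept probes. Marker genes followed the labelled tissue, with the mean of 8 cerebellar markers at 8.73 to 9.32 on cerebellum arrays and 5.16 to 5.64 elsewhere, of 4 cortical markers at 8.48 to 8.90 on cortex arrays and 5.11 to 6.61 elsewhere, and of 4 striatal markers at 10.17 to 11.19 on striatum arrays and 5.99 to 9.54 elsewhere. Of the Thap1 probes, ILMN_2603593 was detected on 0 of 12 knockout arrays and 8 of 12 control arrays and ILMN_2907066 on 1 and 10, whereas ILMN_1258989 was detected on 12 and 10 and read 5.25 to 6.61 in the knockout against 4.53 to 5.77 in the control. The deleted part of the gene was not compared with the probe positions here.

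Prepl was the brightest member and was lower on every knockout array than on every control array of its region. Its 1 probe, ILMN_1254104, was detected on all 24 arrays. The cerebellar arrays read 9.58, 9.43, 9.18 and 9.76 in the knockout, against 10.45, 10.85, 10.17 and 10.11 in the control. In cortex it read 9.67, 9.86, 9.34 and 9.64 in the knockout, against 11.05, 10.30, 10.70 and 11.02 in the control. The groups did not overlap, and the smallest step between them was 0.35 in cerebellum and 0.44 in cortex. The striatal arrays read 9.87, 10.25, 9.68 and 10.27 in the knockout, against 10.94, 10.88, 11.62 and 10.91 in the control. Control replicate 3 stood above the other striatal controls, and the groups were again apart, by 0.61. Knockout minus control was -0.91 in cerebellum, -1.14 in cortex and -1.07 in striatum (SE 0.19, n = 4 each). The knockout signal was therefore 53.3%, 45.4% and 47.6% of the control signal in cerebellum, cortex and striatum, offset included. The effect in cerebellum minus that in cortex was 0.23 (SE 0.26), within its error. In whole tissue, fewer cells that express a gene and less RNA per cell cannot be told apart.

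Genes of the same family and pathway as Prepl did not pass the test. Of 10 listed prolyl peptidases, all 10 had a kept probe, and limma called 0 in any region after adjustment over the 14994 probes, with 1 of 30 comparisons at an unadjusted p under 0.05. Their median difference was 0.063 in cerebellum, -0.010 in cortex and 0.14 in striatum, beside medians over all kept probes of -0.00058, 0.010 and 0.012. Over all 14994 kept probes, an unadjusted p under 0.05 was met by 760 in cerebellum, 1526 in cortex and 1054 in striatum (limma). Counts at that threshold, here and below, are to be read beside these. Dpp10, a brain relative of dipeptidyl peptidases that modifies potassium channels, differed by 0.18, 0.35 and 0.24 in cerebellum, cortex and striatum. Apeh, which removes acylated residues from peptide ends, differed by 0.093, -0.040 and 0.20. Of 8 AP-1 subunits, 5 had a kept probe and 0 were called by limma, with 1 of 15 comparisons at an unadjusted p under 0.05, and Ap1s1, its small sigma subunit, differed by -0.30 in striatum (limma, adjusted p = 0.707). Of the 20 genes nearest to Prepl on its chromosome, 7 had a kept probe and 0 were called by limma, with 2 of 21 comparisons at an unadjusted p under 0.05. Neither gene adjacent to Prepl had a probe on the array.

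**Figure D1:**
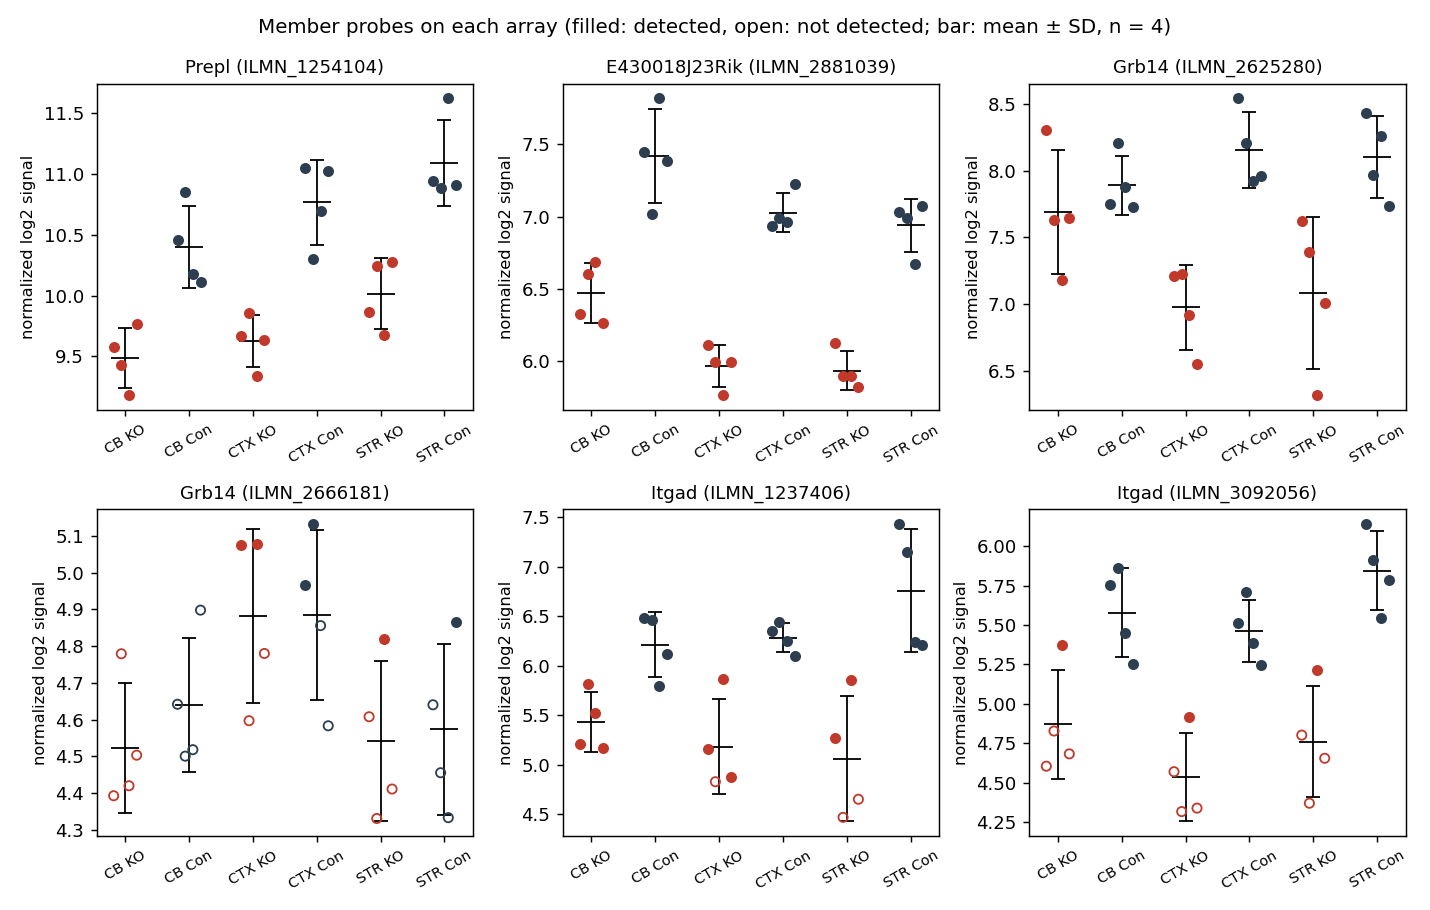
Normalized log2 signal of the 6 kept member probes on each of the 24 arrays, by region (CB cerebellum, CTX cortex, STR striatum), with knockout in red to the left of control in dark blue. Filled points were detected and open points were not, and bars give the mean and SD of 4 arrays. For Prepl and E430018J23Rik the knockout and control points are apart in all 3 regions, for Grb14 ILMN_2625280 in cortex and striatum, and the dim Grb14 probe ILMN_2666181 shows no such step.

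E430018J23Rik was lower on every knockout array in all 3 regions, by close to 1 on the log2 scale in each. In cerebellum ILMN_2881039 read 6.33, 6.60, 6.68 and 6.26 in the knockout, against 7.45, 7.02, 7.82 and 7.39 in the control. In cortex it read 6.11, 5.99, 5.76 and 5.99 in the knockout, against 6.93, 6.99, 6.96 and 7.23 in the control. The striatal arrays read 6.12, 5.90, 5.89 and 5.82 in the knockout, against 7.03, 6.99, 6.67 and 7.07 in the control. The groups were apart by 0.34 in cerebellum, 0.82 in cortex and 0.55 in striatum, and in cortex the 4 arrays of a genotype lay close together (SD 0.15 in knockout and 0.13 in control). Knockout minus control was -0.95, -1.06 and -1.01 in cerebellum, cortex and striatum (SE 0.16, n = 4 each). Without background correction these differences were -0.55, -0.53 and -0.50. The gene's other probe, ILMN_2739163, was detected on 0 of 24 arrays and read at most 4.55, so it was not kept and says nothing of the difference.

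A zinc finger gene close to E430018J23Rik on chromosome 7 was lower in the knockout too. Of the 20 nearest protein-coding genes, 12 had a kept probe, and limma called 1 of them lower in cortex and 1 in striatum, with 0 called in cerebellum. Beside the 6 comparisons of 36 at an unadjusted p under 0.05, the median differences of these neighbours were -0.057, -0.076 and -0.049 in cerebellum, cortex and striatum. The called neighbour was Zfp747 in both regions, 3 genes away, read by ILMN_1219375, which was detected on 23 of 24 arrays. In cortex it read 5.31, 4.84, 5.15 and 5.48 in the knockout, against 6.36, 6.13, 6.17 and 6.21 in the control. The striatal arrays read 5.37, 5.56, 5.14 and 5.29 in the knockout, against 6.05, 6.48, 6.18 and 6.33 in the control. The groups did not overlap in either region. Zfp747 fell by 1.02 in cortex (limma, adjusted p = 0.000672) and by 0.92 in striatum (limma, adjusted p = 0.0023), and both calls held without any single array. The striatal call ended when the 2 striatal groups were fitted alone (limma, adjusted p = 0.0571). In cerebellum Zfp747 read 5.92, 6.38, 6.32 and 6.23 in the knockout, against 6.75, 6.76, 6.93 and 6.90 in the control. That difference was -0.62 (limma, adjusted p = 0.169), with no overlap. It passed without background correction (limma, adjusted p = 0.018), with an offset of 50 (0.036) and with the authors' processed values (0.00926). The other 5 alternatives did not pass (limma, adjusted p up to 0.733), nor did any fit that left out a single array (0.19 to 0.524).

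The genes annotated between Zfp747 and E430018J23Rik gave almost no signal. Zfp764, whose annotated span includes E430018J23Rik, was detected on 2 of 24 arrays, and 9130019O22Rik on 0 of 24. Zfp688, the next gene on the other side, differed by -0.051, -0.42 and 0.18 in cerebellum, cortex and striatum and was not called (limma, lowest adjusted p = 0.336). After each region's mean was subtracted, Zfp747 and E430018J23Rik correlated at 0.910 over the 24 arrays, and after each group's mean was subtracted, at 0.293. The first value holds the genotype difference for which E430018J23Rik was chosen, and the arrays share region and genotype. Whether either probe also reads a related zinc finger transcript was not tested. Of 11 listed co-repressors that act with zinc finger repressors of the KRAB type, listed because zinc finger genes surround E430018J23Rik, 9 had a kept probe. Limma called 0 of them in any region, with 4 of 27 comparisons at an unadjusted p under 0.05. Chd4, a chromatin remodeller, differed by -0.27, -0.063 and -0.37 in cerebellum, cortex and striatum, and Setdb1, a histone methyltransferase, by -0.062, 0.28 and 0.053. Uhrf1 of the same list differed by 0.24, 0.14 and -0.43 in that order.

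**Figure D2:**
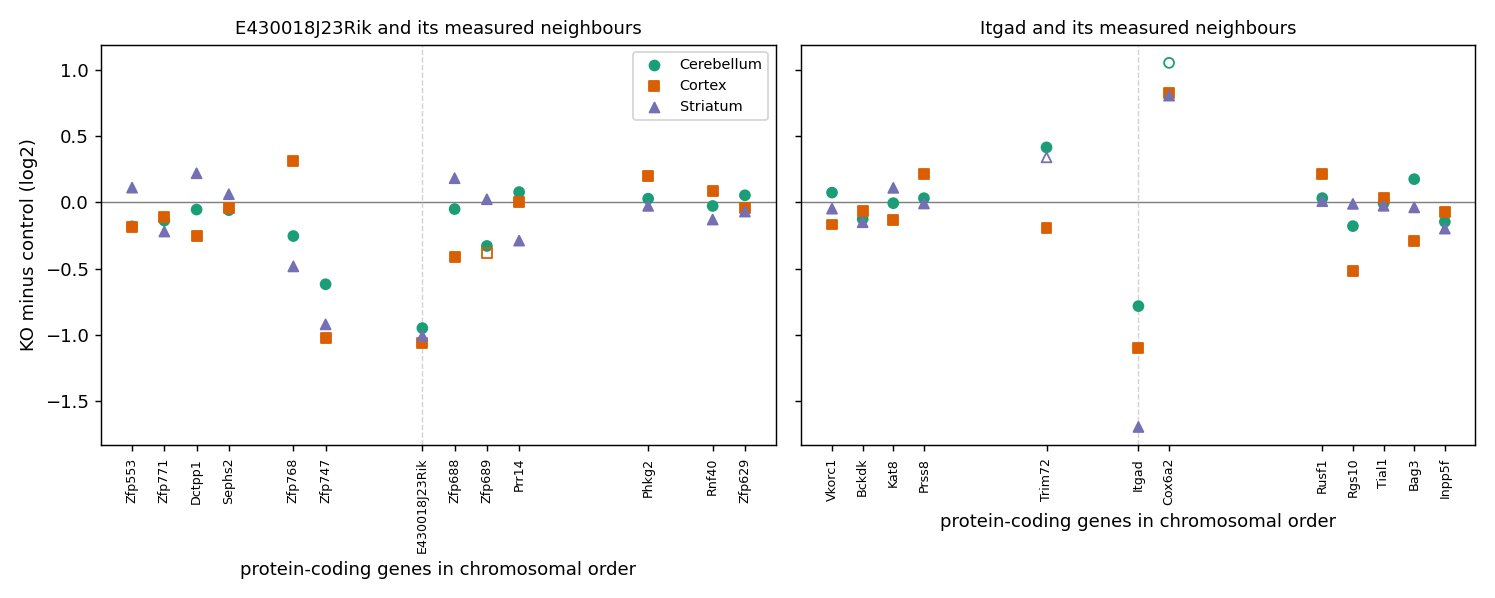
Knockout minus control difference (log2) of E430018J23Rik, Itgad and those of their 20 nearest protein-coding genes that had a kept probe, in chromosomal order, for cerebellum (circles), cortex (squares) and striatum (triangles), open where no array of a group detected the probe. Beside E430018J23Rik, Zfp747 lies at -0.62, -1.02 and -0.92, and beside Itgad, Cox6a2 lies at 1.05, 0.83 and 0.80, of which the first is set against control arrays that did not detect it, while the other neighbours shown lie between -0.52 and 0.41.

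Grb14 was lower in the knockout cortex and striatum on its bright probe and showed little difference in cerebellum. ILMN_2625280 was detected on all 24 arrays. In cortex it read 7.21, 7.23, 6.92 and 6.55 in the knockout, against 8.54, 8.20, 7.92 and 7.96 in the control. The striatal arrays read 7.62, 7.39, 6.32 and 7.01 in the knockout, against 8.43, 7.97, 8.26 and 7.74 in the control. The groups were apart by 0.70 in cortex and by only 0.12 in striatum, where the knockout arrays were spread more widely (SD 0.57) than the controls (SD 0.31). In cerebellum it read 8.31, 7.63, 7.18 and 7.65 in the knockout, against 7.75, 8.21, 7.88 and 7.73 in the control. Knockout replicate 21 was the highest of all 8 cerebellar arrays and replicate 23 the lowest, so the groups overlapped. Knockout minus control was -1.18 in cortex, -1.02 in striatum and -0.20 in cerebellum (SE 0.24, n = 4 each). Leaving out knockout replicate 21 gave -0.40 in cerebellum, leaving out knockout replicate 23 gave -0.027, and leaving out control replicate 18 gave -0.091. Median scaling gave -0.37 there and no background correction -0.13. The effect in cerebellum minus that in cortex was 0.98 (SE 0.33), and minus that in striatum 0.82 (SE 0.33), given with no test because the members were chosen on these effects.

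The other Grb14 probe, ILMN_2666181, hardly rose above background. It was detected on 3 of 12 knockout arrays and 3 of 12 control arrays and on none in cerebellum. It read 4.33 to 5.13, and its differences were -0.12, -0.0019 and -0.031 in cerebellum, cortex and striatum (SE 0.16). Without single arrays the cortical difference ran from -0.10 to 0.093, so its sign is not settled. The 2 Grb14 probes correlated at -0.0933 over the 24 arrays after each region's mean was subtracted. The lower Grb14 signal therefore rests on 1 probe.

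Genes of insulin receptor signalling other than Grb14 did not pass the test. Of 24 listed genes 19 had a kept probe, and limma called 0 in any region, with 5 of 57 comparisons at an unadjusted p under 0.05. Their medians were -0.023, 0.049 and -0.054 in cerebellum, cortex and striatum. Grb10, a relative of Grb14 and likewise an inhibitor of the insulin receptor, differed by 0.034, 0.049 and 0.10, and Grb7, another relative, by -0.049, 0.043 and 0.0061. Pik3r1, the regulatory subunit of phosphoinositide 3-kinase, differed by 0.052, 0.39 and -0.28 and had the smallest unadjusted p of the list (limma, adjusted p = 0.223 in cortex). The probe of the receptor itself, Insr, was detected on 1 of 24 arrays. Of the 20 genes nearest to Grb14, 10 had a kept probe and 0 were called by limma, with 3 of 30 comparisons at an unadjusted p under 0.05.

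Markers of mature oligodendrocytes, the myelin-forming cells, were called lower in cortex and striatum, where Grb14 was lower, and differed less, in the same direction, in cerebellum. Of 11 listed markers 10 had a kept probe, and limma called 0 lower in cerebellum, 6 in cortex and 8 in striatum, with 0 called higher and 0 at an unadjusted p under 0.05 in cerebellum. Their medians were -0.198, -0.709 and -1.004 in cerebellum, cortex and striatum. All 10 markers had a negative difference in cerebellum and in cortex, and 9 in striatum. The summed linear signal of the 10 markers was 50860 to 55415 in knockout and 53493 to 63514 in control cerebellum. It was 32905 to 42575 in knockout and 48005 to 57420 in control cortex, and 37010 to 56817 in knockout and 59315 to 68484 in control striatum. Mag, a myelin adhesion protein, changed by -0.76 in cortex and -0.81 in striatum (limma, adjusted p = 0.0185 and 0.00517), and Opalin, a myelin membrane protein, changed by -1.11 and -1.13 (limma, adjusted p = 0.016 and 0.00664). In striatum Mbp changed by -0.093 and Aspa by 0.090, and neither was called there. The cortical count was 0 with median scaling, 2 with the authors' values and 2 without the filter. Leaving out knockout replicate 16 or control replicate 9 gave 0, leaving out knockout replicate 14 gave 1, and leaving out knockout replicate 15 or control replicate 10 or 11 gave 2. The striatal count was 5 with median scaling, 4 with the 2 groups fitted alone and 5 without knockout replicate 8.

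Grb14 tracked the myelin genes more closely than any other member did. With each region's mean subtracted, its correlation with the mean of the 10 oligodendrocyte markers over the 24 arrays was 0.857, and with each group's mean subtracted it was 0.568. The same values were 0.660 and -0.244 for Prepl, 0.785 and 0.247 for E430018J23Rik and 0.785 and 0.282 for the brighter Itgad probe. Against the mean of 5 neuronal markers, Grb14 correlated at -0.639 with regions centred and -0.757 with groups centred. The values with regions centred hold the genotype difference on which the members were chosen. With groups centred, Grb14 correlated with the single oligodendrocyte markers at 0.21 for Mobp to 0.717 for Opalin. Among all other kept probes, the most alike was ILMN_1248947 of Mal, a protein of myelin membranes, at 0.946 with regions centred and 0.860 with groups centred. The next with regions centred were Tmem98 at 0.916 and Opalin at 0.902, and with groups centred Ddt at 0.816 and Aldh3b1 at 0.806. Another Mal probe, ILMN_1224029, correlated with Grb14 at 0.763 and 0.305. The log2 level of Grb14 less the marker mean averaged -3.24 in knockout and -3.23 in control cerebellum, -3.39 in knockout and -2.87 in control cortex, and -3.43 in knockout and -3.19 in control striatum. In cortex the knockout arrays ran from -3.53 to -3.10 and the control arrays from -3.10 to -2.63, so the ranges met at their edge, and in striatum they overlapped. These arrays share region and genotype, and the part of oligodendrocyte number in the lower Grb14 signal was not tested.

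**Figure D3:**
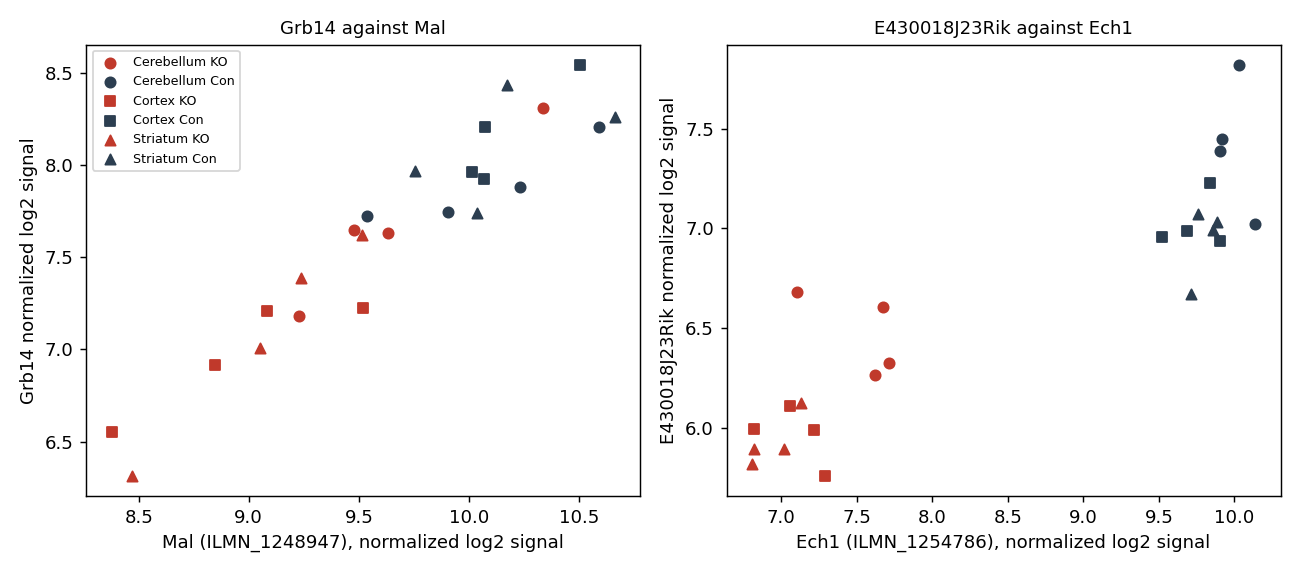
Normalized log2 signal of Grb14 (ILMN_2625280) against Mal (ILMN_1248947), left, and of E430018J23Rik (ILMN_2881039) against Ech1 (ILMN_1254786), right, on the 24 arrays, with knockout in red, control in dark blue, and circles, squares and triangles for cerebellum, cortex and striatum. Grb14 and Mal form a continuous band in which cerebellar knockout and control arrays mix (r = 0.946 with regions centred), whereas E430018J23Rik and Ech1 form a knockout and a control cloud (r = 0.932 with regions centred and -0.162 with groups centred).

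Itgad was lower in the knockout on its brighter probe, with the largest difference in striatum. ILMN_1237406 was detected on 9 of 12 knockout arrays and 12 of 12 control arrays. The striatal arrays read 5.27, 4.47, 5.85 and 4.65 in the knockout, against 7.43, 7.15, 6.24 and 6.21 in the control. In cortex it read 5.16, 4.83, 5.86 and 4.88 in the knockout, against 6.34, 6.44, 6.25 and 6.10 in the control. The groups were apart by 0.36 in striatum and 0.24 in cortex, and knockout replicates 7 and 15 were the highest of their groups. The cerebellar arrays read 5.21, 5.82, 5.52 and 5.17 in the knockout, against 6.48, 6.47, 5.79 and 6.12 in the control. There the highest knockout array exceeded the lowest control array, so the groups overlapped. Knockout minus control was -1.70 in striatum, -1.10 in cortex and -0.78 in cerebellum (SE 0.28, n = 4 each). The effect in cortex minus that in striatum was 0.60 and in cerebellum minus that in striatum 0.91 (SE 0.40), so the order of striatum and cortex is not settled. In striatum 2 of the 4 knockout arrays were not above background. Without background correction the same differences were -0.70, -0.40 and -0.30.

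ILMN_3092056, the second Itgad probe, was dimmer. It was detected on 3 of 12 knockout arrays, 1 in each region, and on 12 of 12 control arrays, so it passed the filter through the control arrays. Most of its knockout values lie at background, and its differences do not add support to those of the brighter probe. In striatum it read 4.80, 4.37, 5.22 and 4.66 in the knockout, against 6.14, 5.91, 5.55 and 5.78 in the control. The cortical arrays read 4.57, 4.32, 4.92 and 4.34 in the knockout, against 5.51, 5.71, 5.39 and 5.25 in the control. The groups did not overlap in either region, and replicates 7 and 15 were again the highest knockout arrays. In cerebellum it read 4.61, 4.83, 5.37 and 4.68 in the knockout, against 5.76, 5.86, 5.45 and 5.25 in the control, and knockout replicate 23 reached into the control range. Knockout minus control was -1.08, -0.93 and -0.71 in striatum, cortex and cerebellum (SE 0.20, n = 4 each), and the effect in cortex minus that in striatum was 0.16 (SE 0.28). The 2 probes correlated at 0.938 over the 24 arrays with regions centred and at 0.796 with groups centred. A further probe, ILMN_3019915, was detected on 2 of 24 arrays and was not kept.

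The partner chain of Itgad and the nearest genes on one side of it were barely measurable. Itgb2, the beta2 chain with which alpha D forms a receptor, was detected on 1 of 24 arrays. Itgam and Itgax, which encode the alpha M and alpha X chains and are the nearest genes on one side of Itgad, were each detected on 0 of 24. Of 11 listed beta2 integrins and ligands 5 had a kept probe, and limma called 0 in any region, with 0 of 15 comparisons at an unadjusted p under 0.05. Vcam1, a ligand of alpha D, differed by 0.16, -0.068 and 0.024 in cerebellum, cortex and striatum, and Icam5, a neuronal ligand of beta2 integrins, by -0.10, -0.048 and -0.19. Of 15 microglial markers 12 had a kept probe, and limma called 0 in any region, with 4 of 36 comparisons at an unadjusted p under 0.05. Their summed linear signal was 1547 to 1739 in knockout and 1353 to 1603 in control cerebellum. It was 3691 to 4227 in knockout and 4296 to 4504 in control cortex, and 3665 to 4668 in knockout and 3861 to 5135 in control striatum. The cortical ranges of this sum were apart, with the knockout lower, and the other ranges overlapped. The mean log2 level of the same markers overlapped in cortex, at 7.44 to 7.82 in knockout and 7.59 to 7.92 in control. Their median difference was 0.096, -0.24 and -0.080 in cerebellum, cortex and striatum. Itgad correlated with the microglial mean over the 24 arrays at -0.0446 with regions centred and -0.250 with groups centred, and the part of microglial number in the Itgad signal was not tested.

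Cox6a2, whose annotated span overlaps the end of Itgad on chromosome 7, had a higher mean in the knockout in each region, and no region passed the test. This gene encodes a muscle and heart form of a cytochrome c oxidase subunit. The striatal arrays read 8.17, 8.34, 8.16 and 8.41 in the knockout, against 7.26, 7.79, 7.58 and 7.24 in the control. In cortex it read 9.07, 9.04, 8.92 and 9.23 in the knockout, against 8.08, 8.14, 8.82 and 7.91 in the control. The groups did not overlap in either region. In cerebellum it was detected on 3 of 4 knockout arrays and on 0 of 4 control arrays. With control values raised to the lowest detected signal of their array, the knockout mean was 1.57-fold the control mean. That ratio is a bound for this processing only and takes no account of the spread between arrays. The fitted means were 5.57 in the knockout and 4.52 in the control, and their difference did not pass the test (limma, adjusted p = 0.154). The differences of 0.80 in striatum and 0.83 in cortex did not pass either (limma, adjusted p = 0.288 and 0.181). The cortical difference passed without background correction (limma, adjusted p = 0.0226) and with the 2 groups fitted alone (0.0302). The cerebellar knockout arrays read 5.22, 6.83, 5.49 and 4.75, the last not detected. Leaving out single arrays moved the fitted cerebellar difference between 0.63 and 1.33. It passed only without knockout replicate 24 (limma, adjusted p = 0.0164), and the adjusted p was otherwise up to 0.53. The other alternatives gave 0.36 to 1.05 there and did not pass. Which transcript and strand each probe reads in the overlap was not tested. Cox6a2 and Itgad correlated at -0.553 over the 24 arrays with regions centred and at 0.146 with groups centred. Of the 11 neighbours of Itgad with a kept probe, limma called 0 in any region, with 5 of 33 comparisons at an unadjusted p under 0.05.

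**Figure D4:**
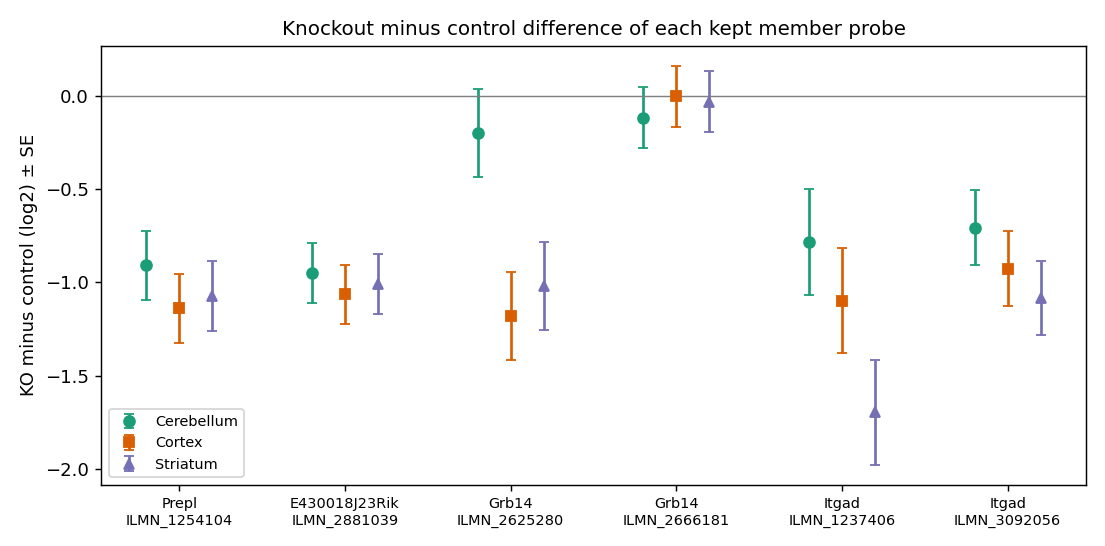
Knockout minus control difference (log2) of the 6 kept member probes with the SE of the limma fit, for cerebellum (circles), cortex (squares) and striatum (triangles), 4 arrays per group. Prepl and E430018J23Rik lie between -0.91 and -1.14 in every region, Grb14 ILMN_2625280 lies at -0.20 in cerebellum, -1.18 in cortex and -1.02 in striatum, and Itgad ILMN_1237406 reaches -1.70 in striatum.

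Side by side, all 18 comparisons of a kept member probe with its control had a negative difference, the direction for which the members were chosen. Those of the dim Grb14 probe ILMN_2666181 lay near 0, and the other 15 ran from -1.70 to -0.20. In 12 of the 18 the highest knockout array was below the lowest control array. By region these were 2 of 6 probes in cerebellum, 5 of 6 in cortex and 5 of 6 in striatum. Over all kept probes the same separation was met by 1.25% in cerebellum, 3.46% in cortex and 1.79% in striatum. Limma called 0.100% of kept probes lower and 0.100% higher in knockout cerebellum, 0.260% lower and 0.167% higher in cortex, and 0.400% lower and 0.0934% higher in striatum. Nothing is read from these shares for the members, which were chosen on the same contrast, and of which Itgad ILMN_3092056 was kept through its control arrays. The 14994 probes were also ordered from the largest fall, by the differences on which the members were chosen, so these ranks only describe that choice. In cerebellum, cortex and striatum, Prepl stood at ranks 17, 12 and 25 and E430018J23Rik at 15, 18 and 31. Grb14 ILMN_2625280 stood at 1953, 11 and 30, and Itgad ILMN_1237406 at 26, 14 and 3. With groups centred, over the 24 arrays, Prepl correlated with E430018J23Rik at -0.482, with the brighter Itgad probe at -0.470 and with Grb14 ILMN_2625280 at 0.423.

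The control arrays are part of the contrasts on which the members were chosen, so the members' levels in control tissue are given by region with no test. Over all kept probes limma called 43.2% between control cerebellum and cortex, 27.1% between cortex and striatum and 38.6% between cerebellum and striatum. Prepl averaged 10.40 ± 0.34 in cerebellum, 10.77 ± 0.35 in cortex and 11.09 ± 0.36 in striatum (SD, n = 4 each). Cerebellum minus striatum was -0.69, cerebellum minus cortex -0.37 and cortex minus striatum -0.32 (SE 0.19), and each of the last 2 steps is close to the spread within a group. E430018J23Rik was highest in control cerebellum, at 7.42 ± 0.33, against 7.03 ± 0.13 in cortex and 6.94 ± 0.18 in striatum (SD, n = 4 each). Cerebellum minus cortex was 0.39, cerebellum minus striatum 0.48 and cortex minus striatum 0.087 (SE 0.16), the last within its error.

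Grb14 ILMN_2625280 differed little between control regions, averaging 7.89 ± 0.22 in cerebellum, 8.16 ± 0.28 in cortex and 8.10 ± 0.31 in striatum (SD, n = 4 each). Itgad ILMN_1237406 averaged 6.21 ± 0.33 in cerebellum, 6.28 ± 0.14 in cortex and 6.76 ± 0.62 in striatum, and cerebellum minus striatum was -0.54 (SE 0.28). The dimmer Itgad probe ILMN_3092056 averaged 5.58 ± 0.28 in cerebellum, 5.46 ± 0.20 in cortex and 5.84 ± 0.25 in striatum. Both Itgad probes had their highest control mean in striatum, by no more than the spread of its 4 arrays for ILMN_1237406.

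The probes whose pattern over the 24 arrays was most like that of the members differed by how the values were centred. With region means subtracted, which leaves the genotype difference in place, Prepl was most like Cuedc2 at 0.901 and Ech1 at 0.893, and E430018J23Rik was most like Ech1 at 0.932, Cuedc2 at 0.922 and Cln3 at 0.920. Both Itgad probes were also most like Ech1, at 0.837 for ILMN_1237406 and 0.868 for ILMN_3092056, followed by Slc45a3 at 0.833 and Dpagt1 at 0.857. Ech1, which encodes an enzyme of fatty acid oxidation, changed by -2.47, -2.64 and -2.86 in cerebellum, cortex and striatum. No test is given for it, because it was picked by a likeness that holds the genotype difference. Cln3, a gene for a protein of the lysosome membrane, lies on chromosome 7, as do E430018J23Rik and Itgad. With group means subtracted, which removes the genotype difference, other probes came first. Prepl was then most like Peli1 at 0.899, Hcfc1 at 0.882 and Sel1l at 0.868, E430018J23Rik like Acot8 at 0.853 and Lamp1 at 0.804, and Itgad like Zfp3 at 0.823 for ILMN_1237406 and Htr2a at 0.812 for ILMN_3092056. With Ech1, the group-centred values were 0.148 for Prepl and -0.162 for E430018J23Rik. These correlations describe 24 arrays that share regions and genotypes, and no test was made of them.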

How the data were processed

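RNA was extracted with TriZol from frozen tissue and amplified to biotin-labelled cRNA, per the labels' protocols. The deposited raw table holds a linear bead intensity and a detection p-value for each of 25697 probes on 24 arrays, per the file headers. BeadStudio is the program named for them, per the submitters' processing notes. A second deposited table holds the authors' processed intensity, with medians of 11.6 on each array, a lowest value of -19.8 and the same rank order as the raw table, made by background and normalization steps that the labels and headers do not name.

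Raw intensities were background-corrected from the detection p-values (limma 3.58.1, R 4.3.3), given an offset of 16, quantile normalized and taken to log2, which understates differences of dim probes. The filter kept probes detected (p under 0.01) on 4 or more arrays. A single lmFit model of the 24 arrays held 6 group means, moderated by eBayes with an intensity trend, two-sided, with Benjamini-Hochberg adjustment over 14994 probes and a threshold of 0.05. The SE of a difference is that of this fit, which has no term for mouse. The SE of 1 region's effect minus another's takes the effects as independent. No scan date or slide was given by which to form batches. The procedure was tested on data simulated with independent noise for each probe and array, which does not cover arrays that share a mouse. Genes were named through the array annotation, with 1 gene for 23978 probes and none for 1719, and matched to RefSeq on GRCm38.p6, which gave chromosomes, neighbours (10 on each side) and promoters. The files name no build, so only the promoter windows carry coordinates, those of GRCm38.p6. A list gene was read by its kept probe with the highest mean. The members and lists were chosen with earlier results of these data known. Tests of the members between control regions had been planned and are not given, because control arrays entered the choice of members.

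Named genes were all member probes, the 3 most alike probes of other genes for each kept member probe under each centring, and Thap1. Also named were the called genes of each list and neighbourhood or up to 3 with the smallest p. Not all of the alike probes, list genes and neighbours are printed. Grb10, Grb7, Insr, Itgb2, Itgam, Itgax, Zfp764 and 9130019O22Rik were added after their values were seen. Alternatives were no background correction, median scaling, the authors' processed values with a floor of 16, an offset of 50, no filter, detection on at least 12 arrays, 2 groups fitted alone, array weights and leaving out each array.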

Additional observations from a re-analysis of the deposited data

Results flagged for a closer look

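Of the 36 sets of 4 arrays formed by 6 kept member probes and 6 groups, 1 held an array far from the others. For Prepl in control striatum, replicate 3 read 11.62 and the next highest array 10.94, a gap that takes up 0.915 of the range of the group, above Dixon's critical value for 4 samples. Chance gives such a mark in about 1 of 20 groups. Without this array the knockout minus control difference of Prepl in striatum was -0.90, against -1.07 with it, and all 4 knockout arrays still lay below the remaining control arrays.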

How the results depend on the processing

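The knockout minus control differences of the kept member probes kept their negative sign under every alternative and without any single array, except for the dim Grb14 probe ILMN_2666181, which lay near 0. Of the recomputed differences, 20 moved by more than the spread between arrays and 265 did not. Those that moved were of E430018J23Rik, Itgad and, once, Grb14 ILMN_2625280, and most were smaller without background correction or with an offset of 50. The counts over all kept probes moved more. In cerebellum 30 were called (15 higher and 15 lower), against 58 with the authors' values, 9 with the 2 groups fitted alone, 20 with median scaling (5 higher and 15 lower, where the median of all probes was -0.107) and 21 to 29 without single arrays. In cortex 64 were called (25 higher and 39 lower), against 33 with median scaling (20 higher and 13 lower, where that median was 0.124), 42 without the filter, 257 with array weights (140 higher and 117 lower) and 17 to 44 without single arrays. That count was 34, 29, 30 and 17 without knockout replicates 13, 14, 15 and 16, and 31, 41 and 39 without control replicates 9, 10 and 12. In striatum 74 were called, against 37 with median scaling, 19 with the 2 groups fitted alone and 38 to 121 without single arrays, with 38 without knockout replicate 8, 121 without knockout replicate 5 and 44 without control replicate 1. The counts between control regions stayed within 1.5 times. The cause was not tested. No paired analysis was possible because the groups compared share no replicate numbers. The number of arrays and, for Itgad ILMN_3092056 and Grb14 ILMN_2666181, a signal near background limit what can be seen.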
